A study of Arabidopsis thaliana with 4 samples.

Results

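Among the genes that loosen and remodel the primary cell wall, 7 were followed in Arabidopsis roots exposed to the root-colonizing fungus *P. indica*. They code for the alpha-expansins EXPA7 (AT1G12560), EXPA18 (AT1G62980), EXPA4 (AT2G39700) and EXPA15 (AT2G03090) and for the xyloglucan endotransglucosylase/hydrolases XTH18 (AT4G30280), XTH19 (AT4G30290) and XTH20 (AT5G48070). The members were taken by locus code, as genes with a probe set that the platform's annotation assigns to 1 gene. Each has 1 such probe set, so the set comprises 7 of 22746 probe sets and 7 of the 13333 genes that could be named. None of the 7 probe sets carries a suffix for cross-hybridization. The values come from 4 Affymetrix ATH1 arrays, each of which reads a transcript with a group of short oligonucleotides. They represent roots of wild-type Columbia-0 seedlings after 6 d beside a plug with *P. indica* hyphae, after 6 d beside a plug without hyphae (mock), after 2 d beside the fungus and after 2 d of mock treatment. Roots and hyphae had come into contact by the later time but not by the earlier one, and the labels give the seedlings an age of 16 d on the 6 d arrays and 12 d on the 2 d arrays. The methods speak of 3 independent experiments, and the sources used here do not say if their RNA was pooled. Each condition has 1 array and thus no replicate, and every difference below is a size without an error or a p-value.

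Growing plant cells are held by cellulose microfibrils that are tethered by xyloglucan. Expansins loosen this network at the low pH of the growing wall without cutting its polymers, and XTH enzymes cut xyloglucan chains and can rejoin them to other chains. EXPA7 and EXPA18 are expressed in hair-forming cells of the root epidermis and are standard markers of root hair growth. XTH18, XTH19 and XTH20 belong, with XTH17, to a subgroup of the XTH family with expression in the root, in overlapping zones of elongation and differentiation for XTH18 and XTH19 and mainly in the vascular tissue of the mature root for XTH20. XTH18 and XTH19 are next to each other in the TAIR10.1 annotation. XTH24, which follows on the other side of XTH18, was not analysed here.

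The signals are linear intensities on a common scale, with the same mean on each array after trimming 2% of the probe sets from either end. A signal under 22.2, the mean of the arrays' 40th percentiles, was treated as not above background. All 7 members were above this floor on all 4 arrays, with signals between 75.0 and 862. Signals of different probe sets are not on one scale, so levels are compared between arrays within a gene. Between the time points the arrays also differed technically, and 18 of 18 hybridization controls were brighter at 6 d. The actin 3'/5' ratio, a sign of RNA integrity, was 29.5 and 34.2 on the *P. indica* and mock arrays at 6 d, against 6.54 and 7.99 at 2 d. Its 5' signals at 6 d, 39.9 and 34.0, were near the floor. In the same order this ratio was 1.62 and 1.58 against 0.736 and 0.725 for GAPDH. For ubiquitin it was 2.74 and 2.64 against 1.85 and 1.86. Of 9 root markers only PYK10, an abundant root beta-glucosidase, has a named probe set, and its signal was 3098 or more on every array. None of the markers RHD6, RSL4, RBOHC, LRX1, COBL9, PRP3 and CSLD3 of hair-forming cells has one, so the number of these cells could not be checked. In whole roots, fewer cells of a type and less RNA per cell cannot be told apart.

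The root hair expansins had a higher signal beside the fungus at 2 d, and this difference was small or turned at 6 d. EXPA7 had signals of 163 in *P. indica*-exposed and 150.3 in mock-treated roots at 6 d, against 281 in exposed and 202 in mock-treated roots at 2 d. EXPA18 had 198 in exposed and 229 in mock-treated roots at 6 d, against 329 in exposed and 233 in mock-treated roots at 2 d. For both genes the exposed array at 2 d was thus the brightest of the 4. The other 3 arrays of EXPA18 lay closer together, while those of EXPA7 ran from 202 down to 150.3, a 1.35-fold span. Relative to mock, EXPA7 was higher by 1.09-fold at 6 d and by 1.39-fold at 2 d. EXPA18 was lower by 1.16-fold at 6 d and higher by 1.41-fold at 2 d. The log2 ratios of 0.47 for EXPA7 and 0.50 for EXPA18 at 2 d were the highest of the 7 members. They lay just above the 95th percentile of all probe sets counted at 2 d, which was 0.45, and 4.67% and 4.16% of these probe sets had a log2 ratio at least as high.

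The other alpha-expansins did not share 1 pattern. EXPA4 had a signal of 458 in exposed and 445 in mock-treated roots at 6 d, a 1.03-fold difference, against 862 in exposed and 659.6 in mock-treated roots at 2 d, where it was 1.31-fold higher. Its order of the 4 arrays was the same as that of EXPA7, with the exposed array first and the mock array second at 2 d, then the exposed and the mock array of 6 d. EXPA15 had 194 in exposed and 199.7 in mock-treated roots at 6 d, and 318 in exposed and 331 in mock-treated roots at 2 d. It was 1.03-fold and 1.04-fold lower beside the fungus at 6 d and 2 d, so its arrays separated by time and hardly by treatment.

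XTH18 had the largest difference from mock of any member at either time point, and it was a lower signal. It had signals of 178 in exposed and 295 in mock-treated roots at 6 d, which is 1.66-fold lower, against 375 in exposed and 327 in mock-treated roots at 2 d, which is 1.15-fold higher. Beside the fungus at 6 d it was thus the dimmest of its 4 arrays, and the other 3 lay between 295 and 375. The log2 ratio of -0.73 at 6 d was lower than the 5th percentile of -0.41 over all probe sets counted, and 0.47% of the probe sets had a ratio as low or lower. Its neighbour XTH19 had 226 in exposed and 273 in mock-treated roots at 6 d, 1.21-fold lower, and 301 in exposed and 315 in mock-treated roots at 2 d, 1.05-fold lower. Both genes of this tandem pair therefore had their lowest signal on the exposed array at 6 d, with log2 ratios of -0.73 and -0.27. The same holds for EXPA15 and EXPA18, and 13.0% of the probe sets had a ratio as low as that of XTH19 or lower. How far the probes of XTH18 and XTH19 bind each other's transcript was not tested. XTH20 ran the other way at 6 d, with 87.8 in exposed and 75.0 in mock-treated roots, 1.17-fold higher, and it was 1.15-fold higher at 2 d with 113 in exposed and 98.3 in mock-treated roots. Its log2 ratios were close to each other, 0.23 (6 d) and 0.20 (2 d).

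**Figure D1:**
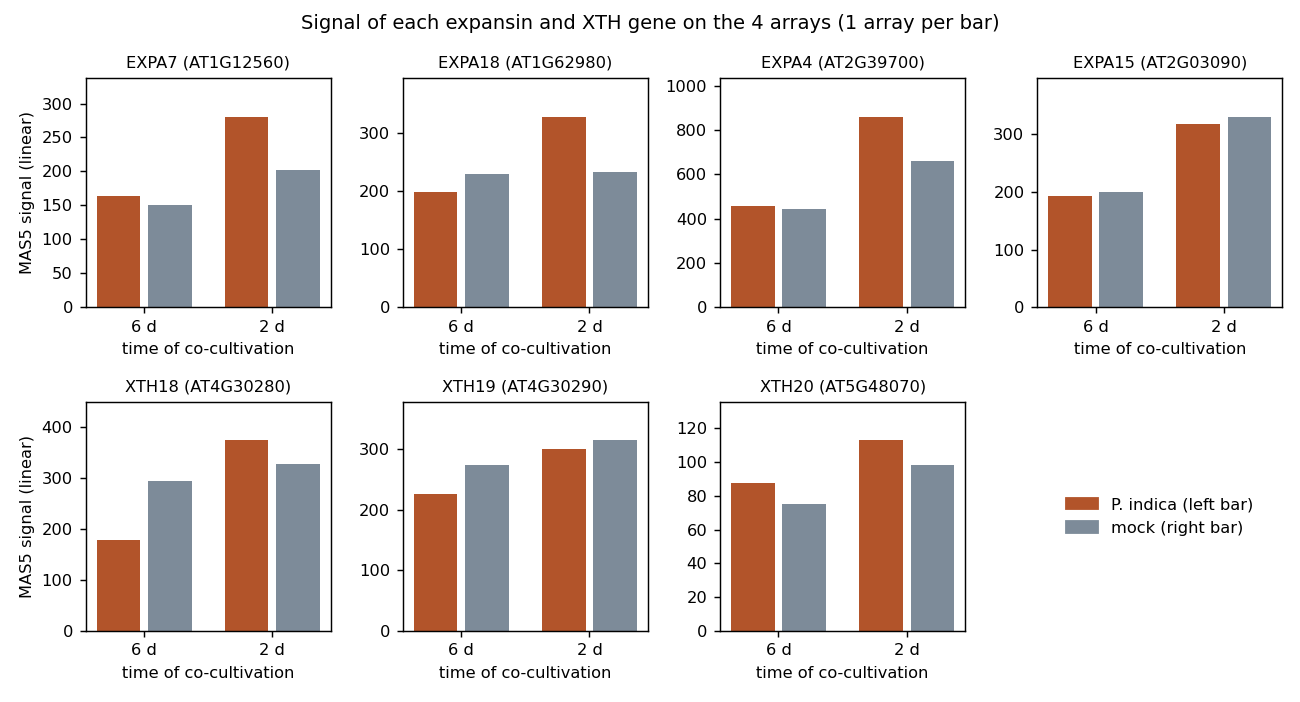
Linear MAS5 signal (vertical axes, from 0) of the 7 members at 6 d and 2 d of co-cultivation, with *P. indica* as the left and mock as the right bar of each pair and 1 array per bar. EXPA7, EXPA18 and EXPA4 have their tallest bar beside the fungus at 2 d (281, 329 and 862), and XTH18 has its shortest beside the fungus at 6 d (178).

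Set against a limit of 1.5-fold, the differences from mock within a time point were small. At 6 d only XTH18 passed this limit, as lower beside the fungus, among 1.35% lower and 2.27% higher probe sets of the 14029 counted. At 2 d no member passed it in either direction, while 2.77% of the 14118 probe sets counted passed it as higher and 2.39% as lower. No member passed a limit of 3-fold, which 0.107% of the probe sets passed at 6 d and 0.347% at 2 d. By direction alone 3 members were higher and 4 lower in exposed roots at 6 d (median log2 ratio -0.04), and 5 were higher and 2 lower at 2 d (median 0.20). The median over all probe sets counted was -0.02 at 6 d and -0.03 at 2 d. Since MAS5 signals scatter more at low intensity, the 5838 probe sets with a mean signal in the range of the members (93.5 to 606) were also looked at, and at 2 d the middle 90% of these lay between -0.42 and 0.42 on the log2 scale.

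The root hair expansins stood above the other members at 2 d and not clearly so at 6 d. The mean log2 ratio of EXPA7 and EXPA18 was -0.05 at 6 d and 0.48 at 2 d, and that of the other 5 members was -0.16 at 6 d and 0.13 at 2 d. The difference was 0.11 at 6 d and 0.35 at 2 d. At 6 d the 2 root hair genes pointed in opposite directions, with 0.12 for EXPA7 and -0.21 for EXPA18, inside the range of -0.73 to 0.23 of the other members. At 2 d both lay above all others, which ran from -0.07 for XTH19 to 0.39 for EXPA4. Genes are not replicates of a condition, and with EXPA4 this close the contrast is a description of 2 against 5 genes.

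**Figure D2:**
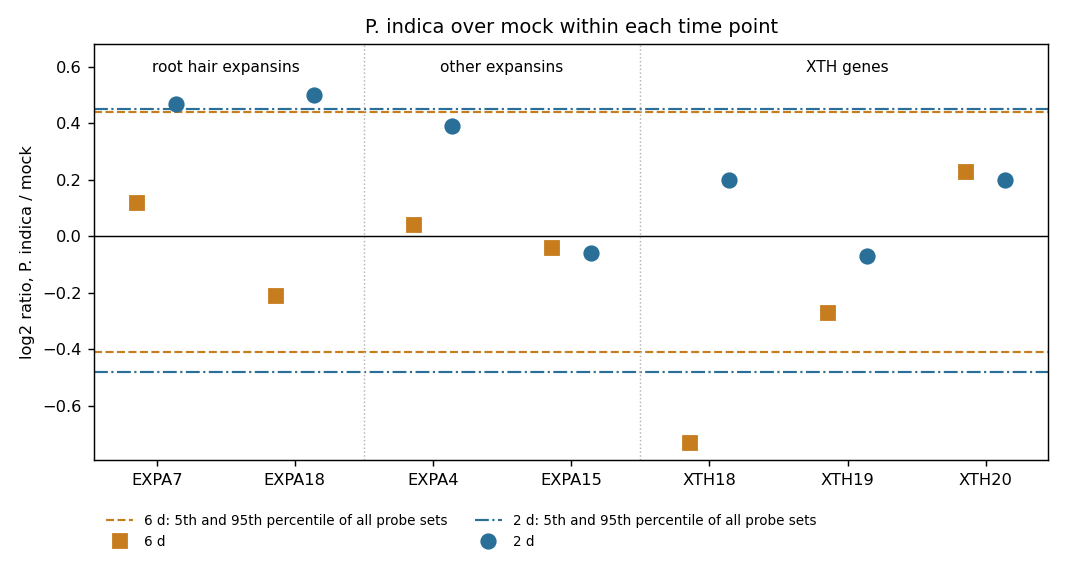
Log2 ratio of *P. indica* over mock (vertical axis) for each member at 6 d (squares) and 2 d (circles), 1 array per condition. Horizontal lines mark the 5th and 95th percentile of all probe sets counted (-0.41 and 0.44 at 6 d, -0.48 and 0.45 at 2 d), which EXPA7 and EXPA18 exceed at 2 d and XTH18 falls below at 6 d.

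Between the time points the members differed in 1 direction. All 7 had a lower signal at 6 d than at 2 d, both beside the fungus and in mock-treated roots. In exposed roots the signal was lower by 2.11-fold for XTH18, 1.88-fold for EXPA4, 1.72-fold for EXPA7, 1.66-fold for EXPA18 and 1.64-fold for EXPA15, and XTH19 (1.33-fold) and XTH20 (1.29-fold) stayed within 1.5-fold. In exposed roots 5 of the 7 members were thus more than 1.5-fold lower, where 9.93% of 14276 probe sets were. In mock-treated roots EXPA15 alone passed this limit, with a 1.66-fold lower signal, next to 8.46% of 14242 probe sets. EXPA4 lay just inside it in mock-treated roots (1.48-fold lower), followed by EXPA7 (1.35-fold), XTH20 (1.31-fold), XTH19 (1.15-fold), XTH18 (1.11-fold) and EXPA18 (1.02-fold). No member was higher at 6 d, while 9.62% of the probe sets in exposed and 6.73% in mock-treated roots were more than 1.5-fold higher. None reached 3-fold, which 1.11% of the probe sets in exposed and 0.85% in mock-treated roots did. For the members the log2 ratio of 6 d over 2 d had a median of -0.73 in exposed and -0.39 in mock-treated roots, against 0.01 and 0.00 for all probe sets counted. The hybridization controls, transcripts spiked in at set concentrations, were brighter at 6 d by a median of 0.59 on the exposed and 0.54 on the mock array. Measured against them the members would lie lower still, and 7 members in exposed and 6 in mock-treated roots would be more than 1.5-fold lower. So would the probe sets at large, whose median would be -0.58 in exposed and -0.54 in mock-treated roots. These medians lie close to the 1.5-fold limit itself, which is 0.58 on the log2 scale, so the shares given above do not apply to these counts. The 3'/5' ratio of actin moved with the time points too, and its part in the lower signals was not tested.

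The members differed in how far the lower signal at 6 d was common to both treatments. EXPA15 had log2 ratios of -0.71 in exposed and -0.73 in mock-treated roots and XTH20 -0.36 and -0.39, so the treatments hardly differed for these genes. EXPA18 had -0.73 in exposed and -0.02 in mock-treated roots, and XTH18 -1.07 and -0.15. On the deposited scale their lower signal at 6 d was thus seen almost only beside the fungus. Scaled on the hybridization controls, EXPA18 and XTH18 had -0.57 and -0.69 in mock-treated roots, and -1.32 and -1.67 in exposed roots. This scaling shifts all probe sets of a treatment alike. On the deposited scale EXPA7 (-0.78 in exposed and -0.43 in mock-treated roots), EXPA4 (-0.91 and -0.57) and XTH19 (-0.41 and -0.20) lay in between. The same numbers give the shift in the difference from mock, as the log2 difference from mock at 6 d minus that at 2 d: it was -0.93 for XTH18, -0.71 for EXPA18, -0.35 for EXPA7, -0.34 for EXPA4, -0.20 for XTH19, 0.01 for EXPA15 and 0.03 for XTH20. For the 2 root hair expansins the log2 ratio of 6 d over 2 d averaged -0.76 beside the fungus and -0.23 in mock-treated roots, and for the other 5 members -0.69 and -0.41. The contrast of root hair expansins minus others was therefore -0.06 in exposed and 0.18 in mock-treated roots, so the root hair genes stood out little in this comparison.

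**Figure D3:**
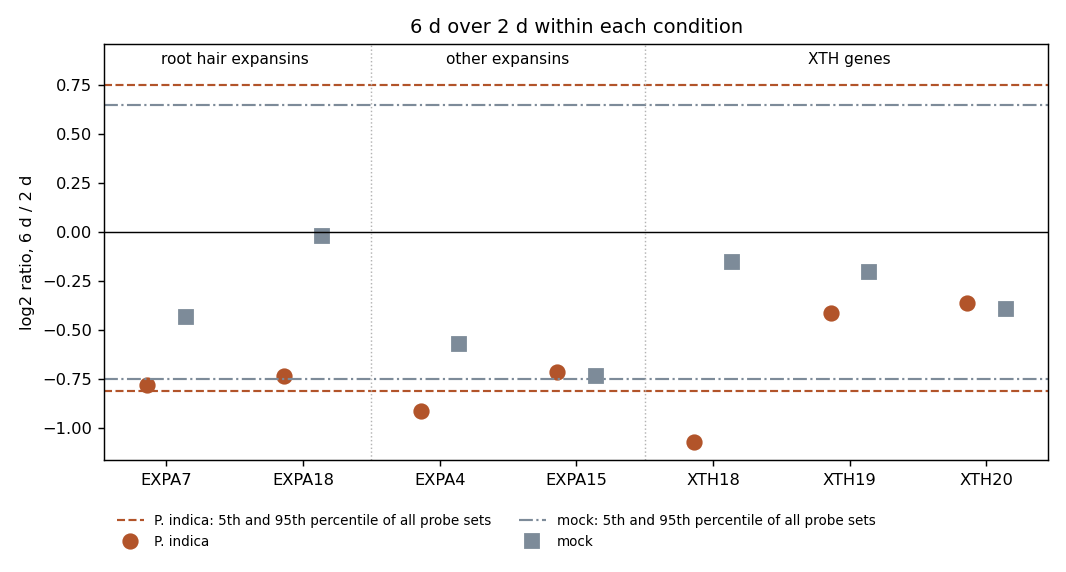
Log2 ratio of 6 d over 2 d (vertical axis) for each member in *P. indica*-exposed (circles) and mock-treated roots (squares), 1 array per condition. Horizontal lines mark the 5th and 95th percentile of all probe sets counted (-0.81 and 0.75 in exposed, -0.75 and 0.65 in mock-treated roots). All 14 points lie below 0, and XTH18 and EXPA18 show the widest gap between the treatments.

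How alike the members were was measured as the root mean square difference of their log2 signals over the 4 arrays, each gene centred on its own mean. The closest of the 21 pairs was not the pair of root hair genes but EXPA4 and EXPA7, with 0.08. EXPA7 and EXPA18 differed by 0.16, the neighbours XTH18 and XTH19 by 0.24, and XTH18 and XTH20, at 0.36, were the least alike. Among 7823 other named genes above the floor, the profile of EXPA7 and EXPA18 was matched most closely by AT1G64610 (0.014), AT4G26010 (0.023) and CSLC12 (AT4G07960, 0.029). AT4G26010 (PRX44) codes for a class III peroxidase and stood in the list of root hair genes. It had signals of 789.9 in exposed and 830.0 in mock-treated roots at 6 d, and 1382 in exposed and 993 in mock-treated roots at 2 d. The log2 ratios were -0.07 and 0.48. The XTH profile, the mean of XTH18, XTH19 and XTH20, was matched most closely by GLDH (AT3G47930, 0.015), AT5G07730 (0.018) and AT1G17300 (0.025). GLDH is the last enzyme of ascorbate synthesis. Since XTH18 and XTH20 were the least alike, a match to this mean is not a match to each gene. At 6 d GLDH had 64.9 in exposed and 78.7 in mock-treated roots, whereas XTH20 was higher in exposed roots. With 4 arrays close matches are common: 71 genes lay within 0.1 of the root hair profile and 326 within 0.1 of the XTH profile.

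Further genes of both families were compared to see whether they followed the members. Of 32 other expansin genes 15 could be named on the array, of which 9 exceeded the floor. At 6 d 6 of the 9 were higher and 3 lower in exposed roots, and at 2 d 5 were higher and 4 lower, with medians of 0.16 and 0.18. The median over all probe sets counted was -0.02 at 6 d and -0.03 at 2 d. At each time 1 gene was more than 1.5-fold higher, as were 2.27% of all probe sets counted at 6 d and 2.77% at 2 d. The beta-expansin gene EXPB2 (AT1G65680) was the only one past 1.5-fold at 2 d, with a log2 ratio of 0.68, and it had -0.37 at 6 d. Its signals were low, with 25.7 in exposed and 33.3 in mock-treated roots at 6 d, and 46.6 in exposed and 29.0 in mock-treated roots at 2 d. EXPB3 (AT4G28250), another beta-expansin gene, had a strong signal and a pattern close to that of EXPA4, with 405 in exposed and 396 in mock-treated roots at 6 d, and 790.3 in exposed and 531 in mock-treated roots at 2 d. The log2 ratios were 0.03 at 6 d and 0.57 at 2 d, and with each log2 ratio centred on the median of all probe sets it passed 1.5-fold at 2 d. EXPB1 (AT2G20750) had 58.3 in exposed and 80.1 in mock-treated roots at 6 d, a log2 ratio of -0.46, and 160.4 in exposed and 164 in mock-treated roots at 2 d. Its log2 ratio of -0.03 at 2 d changed sign with quantile normalization, loess and centring, as did that of EXLA1 (-0.03) with loess and centring. The expansin-like gene EXLA3 (AT3G45960) was the only one past 1.5-fold at 6 d, with 35.9 in exposed and 23.2 in mock-treated roots (log2 ratio 0.63), and had 28.8 in exposed and 25.4 in mock-treated roots at 2 d. Its mock signal at 6 d was near the floor of 22.2. At 6 d relative to 2 d, 4 of the 9 genes were higher and 5 lower in exposed roots, and 2 higher and 7 lower in mock-treated roots. More than 1.5-fold lower were 4 in exposed and 3 in mock-treated roots, where 9.93% and 8.46% of all probe sets counted were. None was more than 1.5-fold higher. Scaled on the hybridization controls, all 9 were lower in both treatments, more than 1.5-fold for 5 in exposed and 7 in mock-treated roots. The shares of all probe sets just given do not apply to this scaling, which moves their median to -0.58 in exposed and -0.54 in mock-treated roots.

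Of 30 other XTH genes 7 have a named probe set, and 6 were above the floor. At 6 d 2 were higher and 4 lower in exposed roots, none past 1.5-fold, and at 2 d 4 were higher and 2 lower, with medians of -0.10 and 0.13. At 2 d 1 gene was more than 1.5-fold higher. Of all probe sets counted, 2.27% were more than 1.5-fold higher and 1.35% lower at 6 d, and 2.77% and 2.39% at 2 d. Counts this small among 6 genes are not a result about these genes. XTH26 (AT4G28850), a gene known from root hairs, had the largest ratio at 2 d, with 87.5 in exposed and 51.7 in mock-treated roots (log2 ratio 0.76). At 6 d it lay at the floor, with 12.7 in exposed and 22.7 in mock-treated roots, and its log2 ratio of 6 d over 2 d, -1.98 or lower in exposed roots and -1.19 in mock-treated roots, was the lowest of these genes. XTH33 (AT1G10550), which codes for a membrane-anchored member of the family, had 42.7 in exposed and 47.9 in mock-treated roots at 6 d, and 52.5 in exposed and 36.3 in mock-treated roots at 2 d, with log2 ratios of -0.17 and 0.53. XTH21 (AT2G18800) and XTH16 (AT3G23730) were lower in exposed roots at 6 d, with log2 ratios of -0.45 and -0.35, and had -0.12 and 0.06 at 2 d. At 6 d relative to 2 d, 2 of the 6 were higher and 4 lower in exposed roots, and 3 higher and 3 lower in mock-treated roots, whereas all 7 members were lower. Only XTH26 was more than 1.5-fold lower, in both treatments, where 9.93% and 8.46% of all probe sets counted were. Scaled on the hybridization controls, all 6 were lower in both treatments. This scaling moves the median over all probe sets too, to -0.58 and -0.54. XTH18 had the lowest ratio at 6 d among the 8 XTH genes above the floor on both arrays of that time, and for XTH26 the floor allows only a bound.

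**Figure D4:**
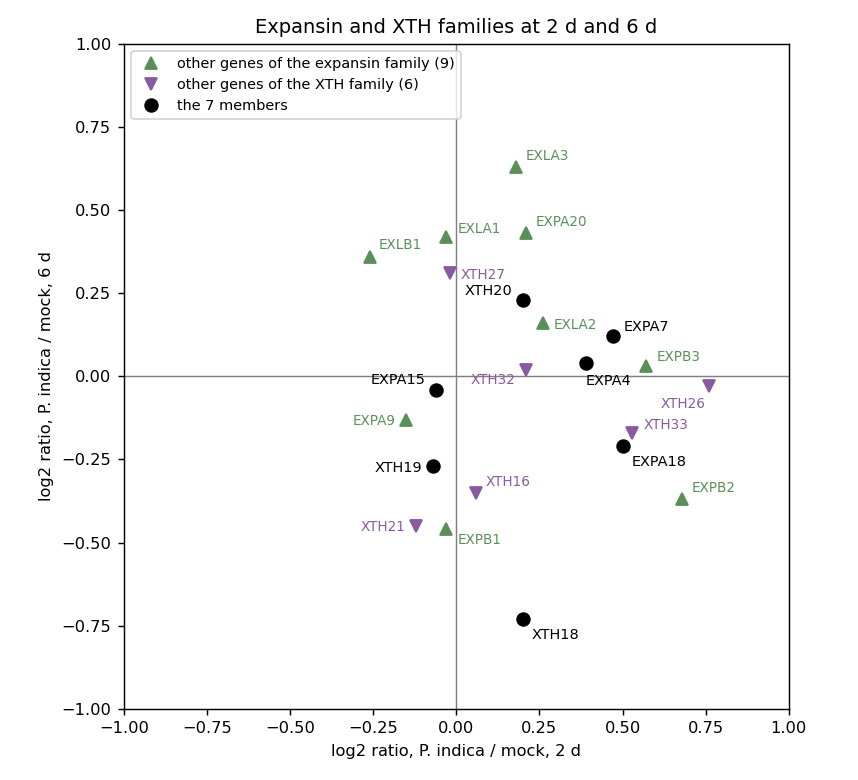
Log2 ratio of *P. indica* over mock at 2 d (horizontal axis) and at 6 d (vertical axis) for the 7 members (circles), 9 other expansin genes (upward triangles) and 6 other XTH genes (downward triangles), 1 array per condition. EXPA18 lies at the lower right with XTH33, XTH26 and EXPB2 (ratios of 0.50 or more at 2 d and below 0 at 6 d), and XTH18 lies lowest. XTH26 at 6 d and EXPA20 at 6 d have an array under the floor.

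Of 8 listed genes that make xyloglucan 2 have a named probe set, both for glucan synthases that form its backbone. CSLC5 (AT4G31590) had 128 in exposed and 132 in mock-treated roots at 6 d, and 140.4 in exposed and 114 in mock-treated roots at 2 d, with log2 ratios of -0.04 and 0.31. CSLC4 (AT3G28180) had 151 in exposed and 179 in mock-treated roots at 6 d, and 188 in exposed and 185 in mock-treated roots at 2 d, with log2 ratios of -0.24 and 0.02. CSLC12, named above for its likeness to the root hair expansins, belongs to the same gene family but was not in the list, and its signals were 28.2 in exposed and 29.9 in mock-treated roots at 6 d, and 46.5 in exposed and 33.4 in mock-treated roots at 2 d. The 3 listed genes of xyloglucan breakdown and 5 regulators of non-hair cells have no named probe set here. Besides AT4G26010, the root hair list of 28 genes has 1 more named probe set, that of SCN1 (AT3G07880), a regulator of where hairs form. SCN1 had 416 in exposed and 408 in mock-treated roots at 6 d, and 355 in exposed and 357 in mock-treated roots at 2 d. At 2 d the log2 ratio was 0.48 for AT4G26010 and -0.01 for SCN1. EXPA7 and EXPA18 are members and not in this list, so within it 1 gene is set against 1 other, each on single arrays.

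Since the labels' extraction text names both roots and shoots, markers of green shoot tissue were looked at beside these results. Of 12 markers 3 have a named probe set, those of rubisco activase (RCA), the antenna protein LHCB4.1 and phosphoribulokinase (PRK), and their signals summed to 739 in exposed and 509.6 in mock-treated roots at 6 d, and 293.5 in exposed and 403 in mock-treated roots at 2 d. All 3 were higher beside the fungus at 6 d, as were 3 members (XTH20, EXPA7 and EXPA4), while 4 members were lower. All 3 were lower at 2 d, as were 2 members (EXPA15 and XTH19), while 5 members were higher. Between the time points, where all members were lower at 6 d, the log2 ratio of 6 d over 2 d was 0.96 for RCA, 1.5 for LHCB4.1 and at least 2.03 for PRK in exposed roots, and -0.02, 0.54 and 1.2 in mock-treated roots. None of the markers was at 0, and PRK was under the floor in exposed roots at 2 d. Their part in the differences of the members was not tested.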

How the data were processed

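Signal intensities were deposited by the authors on a linear scale, as MAS5 signals according to the submitters' processing notes (version not given). Hybridization was to ATH1 arrays, and the study analysed the signals in ROBIN. Of 22810 probe sets 64 controls were left out. Names come from the annotation of the platform, updated by Entrez Gene identifier to TAIR10.1: 13484 have 1 gene, 503 have several and 8759 none that could be named. Signals under the floor of 22.2 were set to it, log2 ratios were formed between arrays, and a probe set was counted where the brighter array lay above the floor. A fold difference of a gene with an array under the floor is a lower bound.

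The members, lists and contrasts were chosen with earlier results of these data known. Members, up to 4 genes of each list (those with the largest ratio to mock), and the 3 nearest genes of each profile are named by rule, and EXPA9, EXPA20, EXLA1, EXLA2, EXLB1 and XTH27 were added after their values were seen. No test was run, since there is 1 array per condition. Alternatives were a floor at the 20th percentile, one at the 60th, none at all, 32 added to every signal, quantile normalization, loess (span 0.3), centring, scaling on the hybridization controls between times, and a 2-fold limit. Counting was tested on simulated data. Promoter motifs were not searched here. Plots were drawn with matplotlib 3.10.9 and values computed with pandas 2.3.3, statsmodels 0.14.6, numpy 2.4.6 and scipy 1.17.1 under Python 3.11.15. Precision is limited by the number of arrays.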

Additional observations from a re-analysis of the deposited data

Results flagged for a closer look

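Of 23 named genes that could be compared between the time points, 13 had a higher signal beside the fungus at one time and a lower one at the other. No share over all probe sets stands beside this count. The median log2 ratio of all probe sets counted was near 0 at both times (-0.02 at 6 d, -0.03 at 2 d). The count is therefore not a result about these genes. With 1 array per condition such a turn was not tested, and near 0 it carries no size. Some of the 13 turned on such a ratio, as SCN1 did with 0.03 at 6 d and -0.01 at 2 d. PRK had -0.01 at 2 d, where its mock signal of 22.3 was at the floor of 22.2. Each value below is the difference from mock on the log2 scale at 6 d minus the same at 2 d. Among the members they were -0.93 for XTH18 and -0.71 for EXPA18. In the families they were -1.06 for EXPB2, -0.79 or lower for XTH26, whose exposed array at 6 d lay under the floor, -0.70 for XTH33 and -0.41 for XTH16. Outside the 23 genes, which were chosen by rule, EXLB1 (0.62), EXLA1 (0.45) and XTH27 (0.33) turned in the opposite direction, as seen after their values were known. The turns of EXLA1 and XTH27 rest on log2 ratios of -0.03 and -0.02 at 2 d. Both changed sign with centring, and that of EXLA1 also with loess, so that the gene no longer turned. The other lists gave -0.55 for PRX44 (AT4G26010), 0.04 for SCN1, -0.35 for CSLC5 and -0.26 for CSLC4. The green shoot markers gave 0.98 for RCA, 0.96 for LHCB4.1 and 0.83 or higher for PRK, whose exposed array at 2 d lay under the floor.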

How the results depend on the processing

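Each log2 ratio of a member kept its direction under every alternative run, and the contrast of root hair expansins minus others did too. That contrast ranged from 0.10 to 0.11 at 6 d and from 0.31 to 0.37 at 2 d, and the log2 ratio of XTH18 at 6 d from -0.73 to -0.64. With a 2-fold limit XTH18 was no longer counted at 6 d against mock (0 members), and between the times 1 member was counted in exposed roots and 0 in mock-treated roots. Loess made the count in mock-treated roots 2 instead of 1. Scaling on the hybridization controls shifts all log2 ratios of 6 d over 2 d by 0.59 or 0.54. The median over all probe sets counted is then -0.58 in exposed and -0.54 in mock-treated roots. This scaling put 6 members past 1.5-fold in mock-treated roots and 1 member past 3-fold in exposed roots. In exposed roots the members' ratios then ran from -1.67 to -0.96. No paired analysis was possible because each condition has 1 array and the labels give no replicate numbers.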

Other observations

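The expansin-like genes, a branch of the expansin family whose wall-loosening activity has not been settled, were singled out after their values were seen. All 4 above the floor were higher beside the fungus at 6 d, with log2 ratios of 0.63 for EXLA3, 0.42 for EXLA1, 0.36 for EXLB1 and 0.16 for EXLA2, and they had 0.18, -0.03, -0.26 and 0.26 at 2 d. No share over all probe sets stands beside this count, and the median over all probe sets counted was -0.02 at 6 d. For genes picked by their values the count is not a result about them. The mock signal of EXLA3 at 6 d, 23.2, was near the floor of 22.2. EXLA1 had 172 in exposed and 128 in mock-treated roots at 6 d, against 139 in exposed and 142 in mock-treated roots at 2 d. None of the 4 was more than 1.5-fold lower at 6 d than at 2 d, while the alpha-expansin gene EXPA9 had a signal of 108 in exposed and 118.5 in mock-treated roots at 6 d, against 295 in exposed and 327 in mock-treated roots at 2 d. On the log2 scale this is -1.45 in exposed and -1.47 in mock-treated roots for 6 d over 2 d, below those of every alpha-expansin among the members.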
